A study of Mus musculus with 8 samples.

Results

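The integrin, laminin and nidogen genes of the mouse mammary epithelium were examined at day 14.5 of pregnancy in control mice and in mice carrying a conditional deletion of Bmpr1a, a type 1 receptor for bone morphogenetic proteins. The genes were chosen by name among the protein-coding entries of the expression table, as every integrin α subunit, every integrin β subunit, every laminin chain and both nidogens. This gave 39 genes of 55933 in the table, namely 18 α subunits, 8 β subunits, 11 laminin chains and 2 nidogens.

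The knockout mice (cKO) were K14-rtTA;teto-Cre;Bmpr1a fl/fl females given doxycycline in the drinking water, in which a K14 promoter directs Cre to myoepithelial cells, the basal layer of the gland. Controls were littermates that the sample labels call wild type, all mice were on a C57BL/6 background, and the exact genotype and doxycycline status of the controls were not given in the sources used here. Each group had 4 mice and 1 RNA-seq library per mouse, made from epithelium freed by collagenase and hyaluronidase and not sorted into layers. In such bulk samples, fewer cells of a type and less RNA per cell cannot be told apart.

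Integrins are heterodimeric receptors, each made of an α and a β subunit, that hold a cell to its surroundings and pass signals in both directions across the membrane. Laminins are trimers of an α, a β and a γ chain that assemble into the sheet of basement membrane under every epithelium, and nidogens link that sheet to the type IV collagen network. In the mammary gland the myoepithelial cells sit on this membrane, α6β4 integrin anchors them to it through hemidesmosomes, and β1 integrin (CD29) and β3 integrin (CD61) are the surface markers by which basal cells and luminal progenitors are sorted.

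Values are FPKM, fragments per kilobase of gene length, so levels can be compared between genes. Here they are scaled between libraries by median-of-ratios size factors and not by total reads. Between 16123108 and 19896988 reads lay on genes in each library. Values for individual libraries are given in the order of replicates 1 to 4, and errors are SD over n = 4 mice for FPKM and SE for log2 fold changes. Differences are cKO minus control on log2(FPKM + 1), tested with limma and adjusted by the Benjamini-Hochberg method over the 15143 genes whose mean FPKM was at least 0.5. Bmpr1a itself was 10.1 ± 1.28 FPKM in the control libraries and 11.2 ± 1.01 in the libraries labelled cKO (two-sided exact permutation p = 0.257, where 4 against 4 allow no p under 0.0286), so its RNA in the whole preparation did not separate the groups, and "cKO" is used below as the label of the libraries.

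The 100 bases before the annotated start are shown for 3 members, as they stand on the strand of the gene in RefSeq's GRCm38.p6 annotation. Itga5 and Itga2 are members with a lower mean in the cKO libraries, and Lama5 is the most abundant laminin α chain and showed little difference. None of the 3 windows overlaps an annotated exon. Capitals mark GGCGCC, a sequence that BMP-activated SMAD proteins can bind.
Itga5, chr15:103366792-103366891, minus strand: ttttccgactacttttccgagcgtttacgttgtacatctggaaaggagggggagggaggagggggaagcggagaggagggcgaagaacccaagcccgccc
Itga2, chr13:114932101-114932200, minus strand: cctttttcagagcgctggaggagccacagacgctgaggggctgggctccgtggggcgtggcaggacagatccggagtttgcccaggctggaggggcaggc
Lama5, chr2:180225860-180225959, minus strand: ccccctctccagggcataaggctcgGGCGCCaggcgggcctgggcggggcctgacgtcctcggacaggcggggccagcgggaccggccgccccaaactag
The Lama5 window holds GGCGCC 75 bases before the start, and the windows of Itga5 and Itga2 hold none.

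The RefSeq promoters used here matched 24 of the 39 members, each reaching from 250 bases before the start to 50 after it. With more than 1 start for some genes, these were 27 promoters. GGCGCC was present in 3 of the 27, those of Itgb1, Lama5 and Lamb1, and in 11.9% of all 32851 promoters. CACCTG, the E-box bound by Snail family repressors such as Slug (Snai2), was present on either strand in 8 of the 27, each of a different member, and in 20.2% of all promoters. Not matched were Itga6, Itga7, Itgad, Itgae, Itgal, Itgb2, Itgb3, Itgb4, Lama1, Lama3, Lama4, Lamc1, Lamc3 and Nid2, among others. The 8 with CACCTG were Itga11, Itga3, Itga9, Itgb5, Itgb6, Itgb8, Lama5 and Lamb3. GGCGCC reads the same on both strands, the 2 motifs can share no more than an end base, and a match is a description of the letters and not a binding site.

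**Figure D1:**
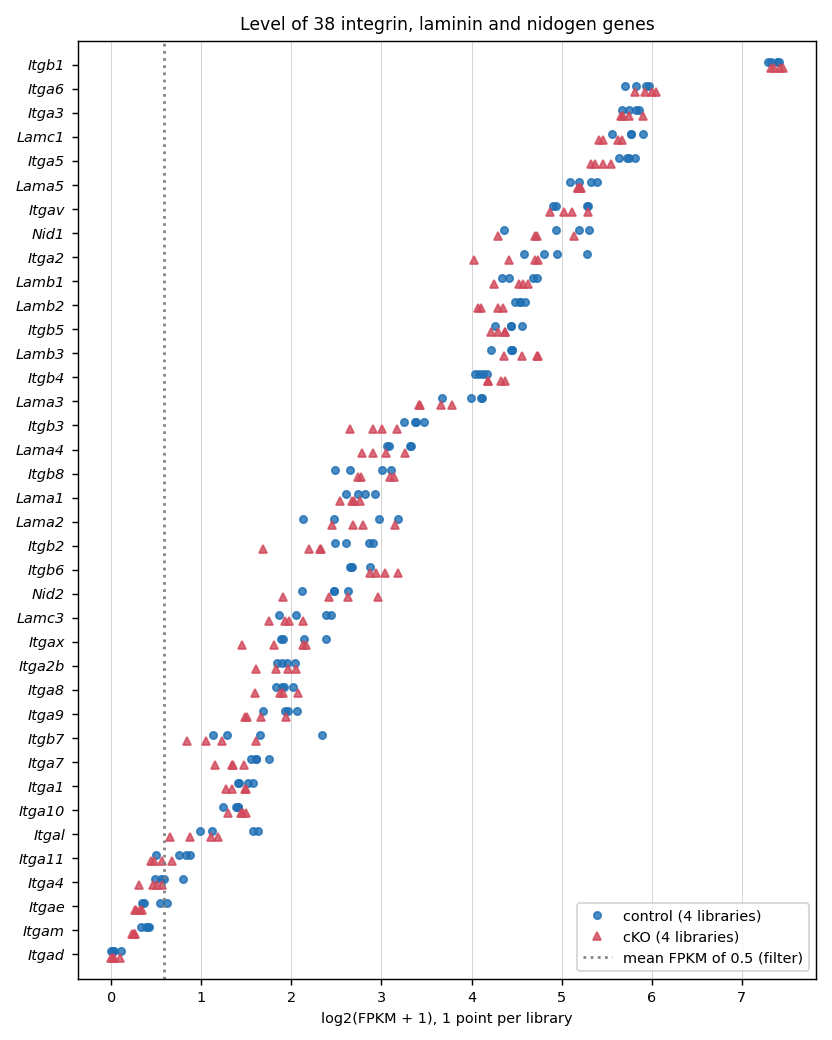
The level of 38 of the 39 genes, as log2(FPKM + 1) on the horizontal axis, with 1 point per library (circles, 4 control; triangles, 4 cKO) and the genes ordered by their control mean. Itgb1 stands apart at the top, and the lowest 5 genes are near or below the filter line of 0.5 FPKM.

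RNA of most members was found in the preparation, at uneven levels. In control mice 34 of the 39 genes had a mean of at least 1 FPKM and 16 had at least 10. Itgb1, which encodes the β1 subunit shared by most α subunits, was the most abundant member at 163 ± 6.38 FPKM, and every control library lay above every value of Itga6. Itga6 (57.1 ± 4.75), Itga3 (53.8 ± 3.20), Lamc1 (53.1 ± 5.28) and Itga5 (52.3 ± 2.62) had similar levels, and neighbours among these 4 overlapped. A gap then separated Itga5 from Lama5 at 37.2 ± 3.49 FPKM, below which the ranges of neighbours overlapped again from Lama5 down to Lamb3 at 19.9 ± 1.62 FPKM.

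Lower gaps, where the control ranges of neighbours did not overlap, lay between Lamb3 and Itgb4 (16.2 ± 0.701 FPKM), between Lama3 (14.8 ± 2.16) and Itgb3 (9.36 ± 0.636), between Itgb6 and Nid2, between Itgal and Itga11, and between Itgam and Itgad. At the bottom, Itgad, a leukocyte α subunit, had 0 to 6 reads per library and Itgam had 14 to 31. Itga4 (0.526 ± 0.145 FPKM in control, 0.379 ± 0.105 in cKO), Itgae (0.386 ± 0.129 and 0.231 ± 0.0343), Itgam (0.306 ± 0.0369 and 0.190 ± 0.0141) and Itgad averaged under 0.5 FPKM over the 8 libraries and were not tested.

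Across the 35 members tested, 8 had a lower mean in the cKO libraries with an unadjusted p under 0.05, which is 22.9% of them against 7.53% of all genes tested. Another 2 members, or 5.71%, had a higher mean at that threshold, against 8.85% of all genes. The 8 were Itga5, Lamb2, Itgb3, Itgb2, Itga7, Lama3, Itga2 and Lamc1, and the 2 were Itgb6 and Itgb4. No member passed an adjusted p under 0.05, which 0.892% of all genes did, and the lowest adjusted p among members was 0.0797. A limma-voom fit on the reads recovered from the FPKM put 0 members past that threshold, with 9 lower and 2 higher at an unadjusted p under 0.05, where 1215 and 1352 of all 15143 genes were lower and higher. The same voom fit with a block for replicate numbers, which the correlations between libraries did not bear out as a pairing, put 5 past it, namely Itga2 (adjusted p = 0.0155), Itga5 (0.0207), Lamb2 (0.0245), Itgb3 (0.0263) and Lama3 (0.0271), as it did 680 of all genes. The other 25 members did not pass the unadjusted threshold. When each library was instead scaled to the same sum of FPKM, the split over all genes moved from 1140 lower and 1340 higher to 1656 lower and 787 higher, and that of the members from 8 and 2 to 7 and 1.

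Means were lower in the cKO libraries for 25 of the 35 members and higher for 10, and their median log2 fold change was -0.11, beside 0.00072 over all genes tested. For 6 of the 35, or 17.1%, every cKO library lay on one side of every control library, against 10.7% of all genes. These were Itga5, Itga7, Itgb2, Itgb3 and Lamb2 on the lower side and Itgb4 on the higher side. The members are expressed in different cell types of the preparation and are not replicates of each other.

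**Figure D2:**
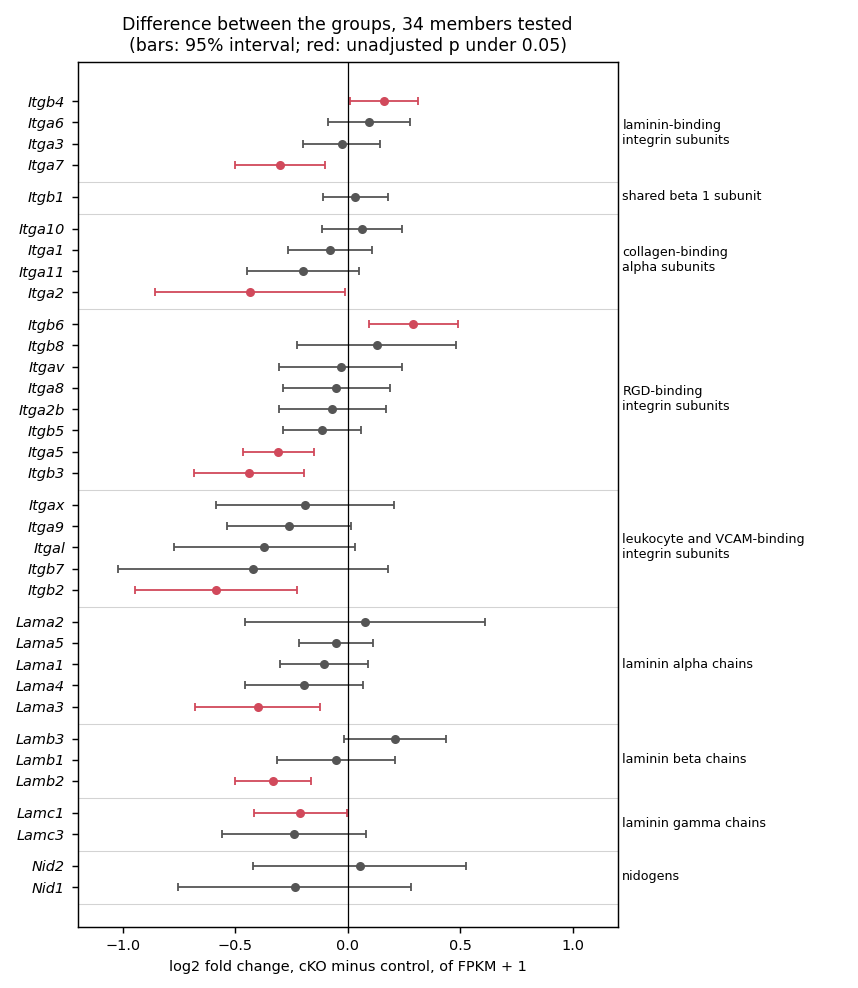
The log2 fold change (cKO minus control, on FPKM + 1) of 34 of the 35 members tested, grouped by role, with 95% intervals from limma. The 10 genes in red had an unadjusted p under 0.05, and 8 of them lie to the left of 0.

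The receptors for laminin include α3β1, α6β1, α7β1 and α6β4. Itgb4, the β4 subunit that binds plectin in the hemidesmosome, was 15.4, 16.5, 17.1 and 16.0 FPKM in the control libraries and 17.2, 17.1, 19.7 and 19.0 in the cKO libraries. All 4 cKO values lay above all control values, though the lowest cKO value and the highest control value nearly touched. The log2 fold change was 0.16 ± 0.067 (unadjusted p = 0.0407, adjusted p = 0.280). It was 0.10 (unadjusted p = 0.163, limma) with libraries scaled to the same sum of FPKM, and also missed the unadjusted threshold with the milk genes left out of that sum and without the trend. Itga6, the partner of β4 and also of β1, was 61.7, 60.1, 55.5 and 51.2 FPKM in control and 65.4, 63.2, 60.0 and 55.4 in cKO, so that the groups overlapped. The log2 fold change of Itga6 was 0.09 ± 0.081 (unadjusted p = 0.277, adjusted p = 0.619), with a 95% interval of -0.09 to 0.28.

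Itga7, an α subunit best known from muscle, was the only laminin-binding subunit with a lower mean at the unadjusted threshold. It was 1.93, 2.36, 2.06 and 2.05 FPKM in control and 1.79, 1.54, 1.23 and 1.53 in cKO, on 158 to 331 reads per library, and the groups did not overlap. Its log2 fold change was -0.30 ± 0.089 (unadjusted p = 0.00817, adjusted p = 0.148), which the pseudocount of 1 makes smaller at this level, and it was -0.45 with a pseudocount of 0.1 and -0.46 with limma-voom. Itga3, the α subunit of an epithelial receptor for laminin-332, was 53.8 ± 3.20 FPKM in control and 52.8 ± 4.21 in cKO, with a 95% interval of -0.20 to 0.14 for the log2 difference.

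Itgb1 was 169, 167, 159 and 156 FPKM in control and 174, 171, 162 and 160 in cKO. The groups overlapped and the log2 fold change was 0.03 ± 0.064 (unadjusted p = 0.603, adjusted p = 0.833), with a 95% interval of -0.11 to 0.18, and its sign turned to -0.03 when libraries were scaled to the same sum of FPKM. Itgb1 made up 71.3 ± 1.02% of the summed FPKM of the 8 β subunits in control and 72.8 ± 0.638% in cKO. CD29, the protein of Itgb1, is read by flow cytometry per cell, whereas these values average over all cells of the preparation.

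The collagen receptors pair α1, α2, α10 or α11 with β1. Itga2, by far the most abundant of them here, was 37.9, 29.8, 27.0 and 23.0 FPKM in control and 25.7, 25.0, 20.4 and 15.3 in cKO. The 2 groups overlapped, since control replicate 4 lay below cKO replicates 1 and 2, and the log2 fold change was -0.43 ± 0.19 (unadjusted p = 0.0442, adjusted p = 0.288). In both groups replicates 1 and 2 exceeded replicates 3 and 4, by 0.42 on the log2 scale in control and 0.49 in cKO. Compared within those sets of replicates, the cKO mean was lower by a log2 difference of -0.40 in replicates 1 and 2 and -0.47 in replicates 3 and 4. Itga1, whose gene lies 21.0 kb from Itga2 on chromosome 13, was 1.79 ± 0.155 FPKM in control and 1.64 ± 0.196 in cKO, and neither it nor Itga10 (1.57 ± 0.133 and 1.69 ± 0.156) nor Itga11 (0.675 ± 0.189 and 0.456 ± 0.107) passed the unadjusted threshold.

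Integrins that read the RGD motif of fibronectin, vitronectin and latent TGF-β had 8 members tested, of which 2 (25%) were lower and 1 (12.5%) higher at the unadjusted threshold, against 7.53% and 8.85% of all genes. Itga5, the α subunit of the fibronectin receptor α5β1, had the lowest p of all members. Its gene lies at chr15:103344286-103366763 on the minus strand in GRCm38. It was 52.9, 48.9, 55.2 and 52.0 FPKM in control and 45.7, 39.1, 43.1 and 40.3 in cKO, and the groups did not overlap. The cKO mean was 0.804 of the control mean, with a log2 fold change of -0.31 ± 0.069 (unadjusted p = 0.00164, adjusted p = 0.0797). Replicates 1 and 2 alone gave a difference of -0.26, and replicates 3 and 4 alone gave -0.36. Fibronectin (Fn1) was 39.3 ± 15.6 FPKM in control and 32.7 ± 11.5 in cKO, with wide overlap.

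Itgb3, at chr11:104608000-104670476, encodes the CD61 subunit that pairs with αv and with the platelet subunit αIIb, and was 9.44, 9.38, 10.1 and 8.54 FPKM in control and 8.02, 7.02, 6.49 and 5.29 in cKO. Every cKO library lay below every control library and the cKO mean was 0.716 of the control mean, with a log2 fold change of -0.44 ± 0.11 (unadjusted p = 0.00300, adjusted p = 0.101). The platelet α subunit Itga2b was 2.82 ± 0.231 FPKM in control and 2.66 ± 0.482 in cKO, and the 4 platelet markers examined (Pf4, Ppbp, Gp9 and Gp1ba) summed to 7.57 to 12.0 FPKM in control and 5.54 to 9.55 in cKO, with Gp9 at 0 in 3 of the 8 libraries. Their part in the Itgb3 difference was not tested.

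Itgb6, an epithelial β subunit that pairs with αv to activate latent TGF-β, averaged higher in cKO. It was 6.33, 5.29, 5.33 and 5.37 FPKM in control and 7.21, 6.32, 8.06 and 6.67 in cKO. Control replicate 1 stood above the other control libraries and just above the lowest cKO library, so the groups overlapped. The log2 fold change was 0.29 ± 0.087 (unadjusted p = 0.00830, adjusted p = 0.149). The common partner Itgav was 33.7 ± 4.98 FPKM in control and 32.9 ± 4.11 in cKO, with a 95% interval of -0.31 to 0.24 for the log2 difference, and Itgb5 (20.5 ± 1.82 and 18.9 ± 1.03 FPKM), Itgb8 (6.12 ± 1.42 and 6.73 ± 1.11) and Itga8 (2.78 ± 0.206 and 2.67 ± 0.489) did not pass the unadjusted threshold. Itga8 shares exon sequence with the antisense gene E030013I19Rik, which had up to 66 reads where Itga8 had at least 238. The ratio of Itgb6 to Itgb3 FPKM in the same library was 0.671, 0.563, 0.528 and 0.629 in control and 0.899, 0.900, 1.24 and 1.26 in cKO. This ratio, like those below, was chosen after the values were seen and is given without a test.

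**Figure D3:**
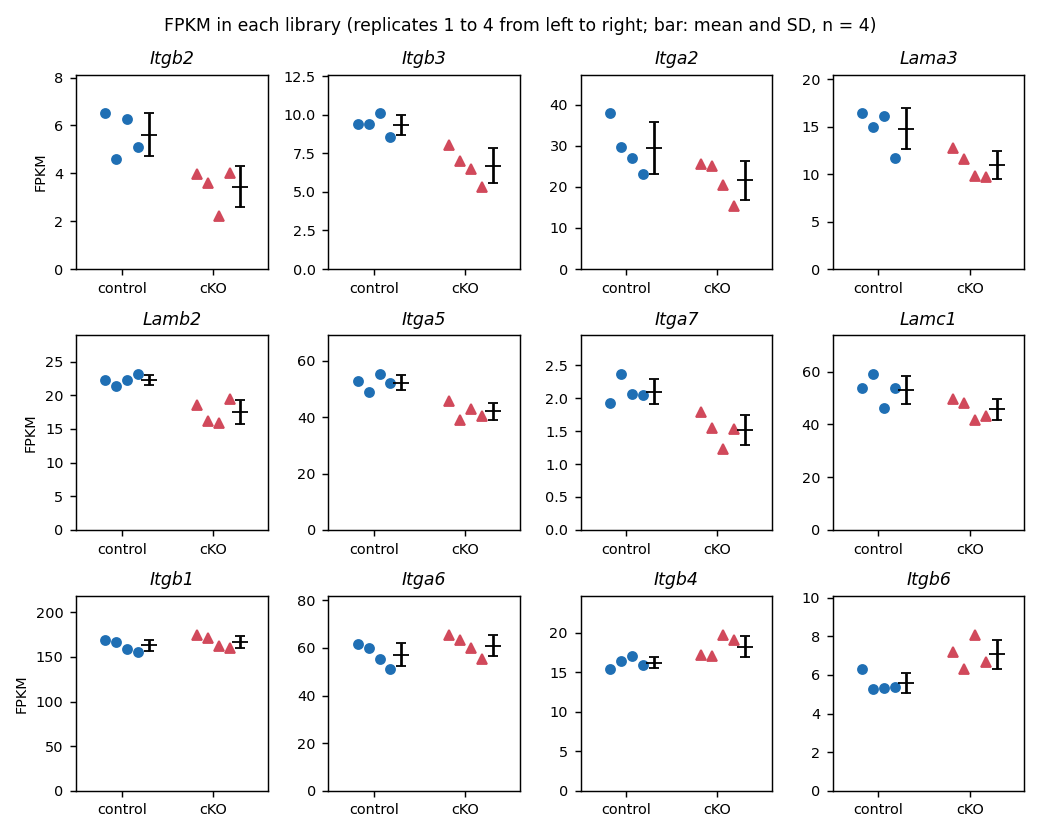
FPKM in each library for the 10 members with an unadjusted p under 0.05, and for Itgb1 and Itga6, on axes that start at 0 (circles, control; triangles, cKO; replicates 1 to 4 from left to right; bars, mean and SD, n = 4). Itga5, Itga7, Itgb2, Itgb3 and Lamb2 show cKO points wholly below the control points, and Itgb4 wholly above.

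All 5 leukocyte and VCAM-binding subunits that were tested had a lower mean in the cKO libraries, as had 49.8% of all genes, with a median log2 fold change of -0.37, and 1 (20%) passed the unadjusted threshold, against 7.53% of all genes. At such low levels log2(FPKM + 1) understates a change, and the cKO mean was 0.618 of the control mean for Itgal and 0.613 for Itgb2. Itgb2 (CD18), the β subunit of the leukocyte integrins, was 6.50, 4.62, 6.26 and 5.10 FPKM in control and 3.97, 3.58, 2.21 and 4.02 in cKO. The groups did not overlap, and the log2 fold change was -0.59 ± 0.16 (unadjusted p = 0.00500, adjusted p = 0.125). Its partner Itgal (CD11a) was 1.55 ± 0.561 and 0.960 ± 0.315 FPKM, and Itgax (CD11c) was 3.26 ± 0.708 and 2.77 ± 0.816, both with overlapping groups. Itga9, whose integrin binds VCAM-1 and tenascin, was 2.78 ± 0.405 and 2.16 ± 0.477 FPKM (unadjusted p = 0.0624, adjusted p = 0.333).

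Itgb7, the β subunit of gut-homing lymphocytes, was 2.15, 1.19, 4.07 and 1.44 FPKM in control and 1.35, 1.07, 0.796 and 2.04 in cKO, with control replicate 3 the highest. Control replicates 1 and 3 were also the highest for the B cell gene Cd79a, at 6.06, 2.02, 14.0 and 1.32 FPKM in control against at most 1.35 in cKO. The 8 leukocyte markers examined summed to 182 to 258 FPKM in control and 107 to 185 in cKO, none was at 0 in all libraries, and of the 7 tested all had a lower mean in cKO and 3 (Cd79a, Adgre1 and Lyz2) an unadjusted p under 0.05. These 3 are 42.9% of the leukocyte markers tested, against 7.53% of all genes. The part of the leukocyte markers in the Itgb2 difference was not tested.

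Among the laminin α chains, Lama5 was the most abundant, and Lama3 was the one with an unadjusted p under 0.05. Lama3, the α chain of laminin-332, the anchor of hemidesmosomes, was 16.4, 15.0, 16.2 and 11.7 FPKM in control and 12.7, 11.6, 9.75 and 9.70 in cKO. Control replicate 4 fell among the cKO values and the other 3 control libraries lay above all cKO libraries. The log2 fold change was -0.40 ± 0.12 (unadjusted p = 0.00991, adjusted p = 0.158). Lama5, the α chain of the most widespread epithelial laminins, was 37.2 ± 3.49 FPKM in control and 35.7 ± 0.391 in cKO, with a 95% interval of -0.22 to 0.11 for the log2 difference. Lama1 (5.86 ± 0.663 and 5.36 ± 0.392), Lama2 (5.73 ± 2.14 and 5.92 ± 1.44) and Lama4 (8.20 ± 0.933 and 7.08 ± 1.17) did not pass the unadjusted threshold.

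Lamb3, the β chain of laminin-332, did not have a lower mean. It was 20.6, 17.5, 20.8 and 20.8 FPKM in control and 19.5, 22.5, 25.7 and 25.5 in cKO (log2 fold change 0.21 ± 0.10, unadjusted p = 0.0638, adjusted p = 0.335), and the groups overlapped. The ratio of Lamb3 to Lama3 in the same library was thus 1.26, 1.17, 1.29 and 1.78 in control and 1.53, 1.94, 2.64 and 2.63 in cKO, with control replicate 4 inside the cKO range.

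Lamb2 encodes the β2 chain and was the only 1 of the 11 laminin chains whose groups did not overlap. That is 9.09% of the chains, against 10.7% of all genes. Its gene lies at chr9:108479736-108490530 in GRCm38. It was 22.3, 21.3, 22.2 and 23.1 FPKM in control, a coefficient of variation of 3.28%, and 18.5, 16.2, 15.8 and 19.4 in cKO. The cKO mean was 0.787 of the control mean, and the log2 fold change was -0.33 ± 0.075 (unadjusted p = 0.00171, adjusted p = 0.0810). Taken alone, replicates 1 and 2 gave a difference of -0.31 and replicates 3 and 4 gave -0.35. Lamb1, the β1 chain that takes the same place in other laminins, was 22.4 ± 3.10 FPKM in control and 21.6 ± 2.54 in cKO, with a 95% interval of -0.31 to 0.21.

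Lamc1, the γ1 chain found in most laminins, was 53.7, 59.0, 46.1 and 53.6 FPKM in control and 49.8, 48.2, 41.7 and 43.1 in cKO. The groups overlapped through control replicate 3, and the log2 fold change was -0.21 ± 0.091 (unadjusted p = 0.0455, adjusted p = 0.292). Lamc3 was 3.62 ± 0.866 FPKM in control and 2.87 ± 0.419 in cKO, with overlap.

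Expressed as shares of each class, the make-up of the α and β chain RNA was described for each library. Lamb2 made up 35.9%, 33.1%, 35.0% and 33.7% of the summed β chain FPKM in control and 30.0%, 26.7%, 26.6% and 28.7% in cKO, without overlap. Lamb3 took a mean of 30.9 ± 2.77% in control and 37.4 ± 4.77% in cKO, with overlap, while Lamb1 took 34.7 ± 3.94% and 34.6 ± 3.57%. Among the α chains Lama3 took 20.6 ± 2.94% in control and 16.8 ± 1.44% in cKO, and Lama5 took 51.8 ± 1.87% and 55.0 ± 3.07%. Shares within a class sum to 100, so a lower share of one chain means a higher share of another.

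**Figure D4:**
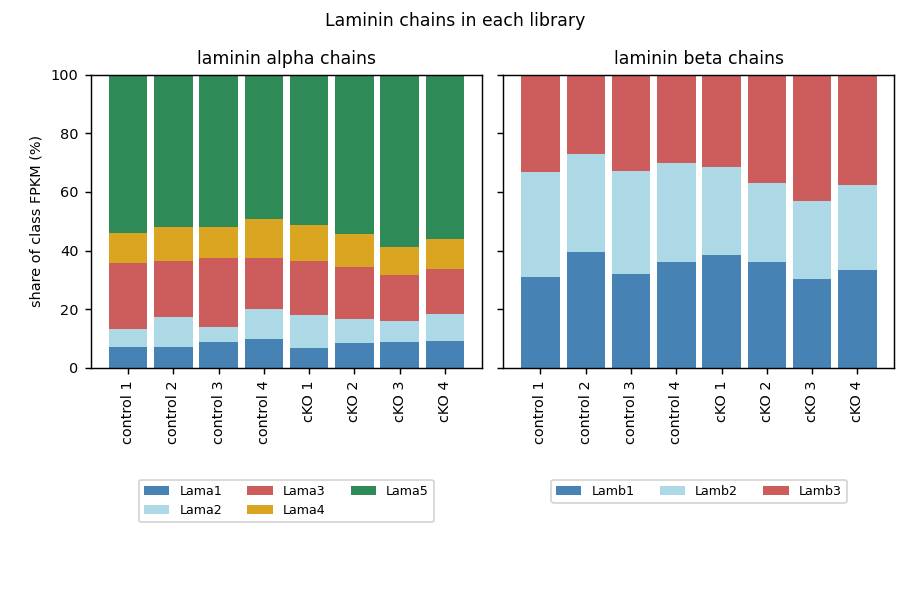
The share of each laminin chain in the summed FPKM of its class (vertical axis, %), in each of the 8 libraries, for α and β chains. In the β panel the middle segment, Lamb2, is 33.1% to 35.9% in control libraries and 26.6% to 30.0% in cKO libraries.

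The same calculation over the 18 integrin α subunits gave Itga6 23.2%, 23.9%, 22.7% and 22.7% in control and 26.9%, 27.4%, 26.3% and 26.6% in cKO, without overlap. Itga5 took 21.2 ± 1.84% and 18.5 ± 1.04%, and Itga2 took 11.8 ± 1.74% and 9.42 ± 1.62%. The ratio of Itga6 to Itga5 was 1.10 ± 0.120 in control and 1.45 ± 0.112 in cKO, again without overlap, although Itga6 alone did not pass the threshold. Against Itgb1, Itga5 was 0.321 ± 0.0238 in control and 0.252 ± 0.0167 in cKO, and Itga2 was 0.180 ± 0.0320 and 0.129 ± 0.0240, both without overlap.

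Nidogens varied widely between mice. Nid1 was 29.7, 38.4, 19.6 and 35.7 FPKM in control and 34.3, 25.5, 18.5 and 25.0 in cKO, with a coefficient of variation of 27.1% in control and a 95% interval of -0.75 to 0.28 for the log2 difference. A difference of the size seen for Lamb2 or Itga5 could not be told from 0 at this spread. Nid2 was 4.57, 5.18, 3.35 and 4.56 FPKM in control and 6.80, 4.34, 2.75 and 5.19 in cKO, and its values are uncertain because its exons overlap those of Rtraf on the opposite strand. Rtraf had up to 1108 reads in a library and Nid2 as few as 226, and strand-specific counting was not stated. The summed fibroblast markers, at 441, 773, 445 and 920 FPKM in control and 713, 433, 299 and 520 in cKO, were lowest in the same control libraries (1 and 3) as Nid1, and highest in cKO library 1 and lowest in cKO library 3, as Nid1 was. Their part in the Nid1 values was not tested.

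Myoepithelial cells are known to express α6β4 and laminin-332, so their markers are given beside these genes. The 10 markers examined summed to 1997 to 2714 FPKM in control and 1818 to 2513 in cKO, and none was at 0. Krt14 (753 ± 93.7 and 577 ± 88.9 FPKM), Trp63 (3.58 ± 0.576 and 2.45 ± 0.594) and Snai2 (12.2 ± 1.19 and 8.59 ± 1.31) had lower means at an unadjusted p under 0.05, Oxtr a higher one, and the other 6 did not pass. Thus 30% of the 10 were lower and 10% higher, against 7.53% and 8.85% of all genes. Krt5 was 126 ± 12.6 FPKM in control and 128 ± 18.5 in cKO and Acta2 825 ± 164 and 953 ± 160, so the markers did not share a direction. Their part in the Lama3, Lamb2 and Itgb3 differences was not tested. Endothelial markers, which accompany Lama4, Itga5 and Nid1 in vessels, summed to 72.2 to 82.3 FPKM in control and 51.5 to 78.6 in cKO, and of 6 tested 3 had a lower mean at the unadjusted threshold, with Vwf passing the adjusted one (limma, adjusted p = 0.0268). Those 3 are 50% of the endothelial markers tested, against 7.53% of all genes. The part of the endothelial markers in the Itga5 difference was not tested.

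The 6 luminal markers summed to 4658 to 5950 FPKM in control and 4582 to 6033 in cKO, while the 8 milk genes summed to 4279 to 6487 in control and 10388 to 18874 in cKO, with 7 of 8 higher in mean at the unadjusted threshold and 4 at the adjusted one. The 7 are 87.5% of the milk genes, against 8.85% of all genes, and 0.892% of all genes passed the adjusted threshold. The part of the milk genes in the members' differences was not tested. With the milk genes left out of the sum to which libraries were scaled, 6 members were lower and 2 higher, beside 1310 lower and 1039 higher over all genes. Of 5 adipocyte markers, 3 were tested and all had a higher mean in cKO. At the unadjusted threshold 2 were higher (66.7%, against 8.85% of all genes). Cidec, at 0.386 ± 0.0668 FPKM in control and 1.56 ± 0.549 in cKO, passed the adjusted one (limma, adjusted p = 0.0377). The part of the adipocyte markers was not tested.

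Genes that work with the members were listed by function. Of 8 hemidesmosome and laminin receptor partners, 1 (12.5%, against 7.53% of all genes) had a lower mean at the unadjusted threshold (Krt14) and none a higher one, with a median log2 fold change of -0.06. Of the most abundant others, the tetraspanin Cd151 was 44.9 ± 3.55 FPKM in control and 43.6 ± 0.760 in cKO, the laminin receptor dystroglycan (Dag1) 38.5 ± 1.51 and 37.0 ± 3.35, and the laminin α5 receptor Bcam 39.3 ± 5.71 and 34.8 ± 5.59, all with overlap. Plectin (Plec) was 30.3 ± 2.57 FPKM in control and 26.6 ± 2.33 in cKO (unadjusted p = 0.0578, adjusted p = 0.322).

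Of 12 other basement membrane genes, 9 were tested, and 5 had a lower mean and 1 a higher mean at the unadjusted threshold, with a median of -0.24 and none past the adjusted one, where 7.53% and 8.85% of all genes were lower and higher. Means were also lower in cKO for all 6 endothelial, all 4 pericyte and all 6 fibroblast markers tested. Of these, 3, 0 and 0 passed the unadjusted threshold, and their part in these differences was not tested. Col4a1, a chain of the type IV collagen network, was 232, 256, 219 and 229 FPKM in control and 209, 179, 177 and 177 in cKO. Its partner chain Col4a2 was 138, 155, 143 and 154 in control and 131, 111, 112 and 119 in cKO. Neither gene's groups overlapped, and the log2 fold changes were -0.34 ± 0.083 and -0.32 ± 0.076 (adjusted p = 0.101 and 0.0924). Agrn, a heparan sulphate proteoglycan, was 26.7 ± 2.35 and 21.2 ± 2.52 FPKM, Col18a1, which gives rise to endostatin, 39.9 ± 5.07 and 31.0 ± 2.42, and Ntn4, a netrin that binds laminin, 1.17 ± 0.190 and 0.840 ± 0.0779. Npnt, a ligand of α8β1, was 4.03 ± 0.212 FPKM in control and 4.74 ± 0.447 in cKO, while perlecan (Hspg2, 34.2 ± 6.52 and 29.7 ± 2.29), Col15a1 (22.4 ± 6.22 and 18.6 ± 4.33) and Col4a5 (19.8 ± 2.42 and 18.5 ± 1.82) did not pass.

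Of 13 other integrin ligands, 2 had a lower mean at the unadjusted threshold (Vtn and Thbs1) and 2 a higher one (Spp1 and Madcam1), with a median of -0.13, and of these Spp1 passed the adjusted threshold. Each count is 15.4% of the list, against 7.53% and 8.85% of all genes. Spp1, osteopontin, a ligand of αvβ3 and a milk protein, rose from 13.8, 17.7, 25.6 and 33.0 FPKM in control to 64.8, 102, 127 and 128 in cKO (log2 fold change 2.20 ± 0.29, adjusted p = 0.0266), without overlap. Madcam1, the ligand of α4β7, was 2.95 ± 0.708 and 6.34 ± 2.32 FPKM (unadjusted p = 0.00394, adjusted p = 0.113). Thbs1, thrombospondin 1, was 343 ± 12.9 and 275 ± 46.0 (unadjusted p = 0.0209, adjusted p = 0.213), and Vtn, vitronectin, was 3.11 ± 0.333 and 1.99 ± 0.718 (unadjusted p = 0.0127, adjusted p = 0.175). The most abundant others, Cdh1, Icam1, Ccn1 and Ccn2, did not pass, and Icam1, the ligand of the β2 integrins, was 256 ± 11.6 and 252 ± 38.9 FPKM.

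Of 18 integrin adaptors and kinases, 3 had a lower mean at the unadjusted threshold (Fermt1, Parvg and Ptk2b), 2 a higher one (Lims1 and Itgb1bp1), and none passed the adjusted one, with a median of 0.01. These are 16.7% and 11.1%, against 7.53% and 8.85% of all genes. Fermt1, the epithelial kindlin that activates β1 integrin, was 16.4 ± 2.92 FPKM in control and 12.6 ± 1.98 in cKO. Parvg, a parvin of blood cells, was 1.31 ± 0.579 and 0.668 ± 0.138, and Lims1, the PINCH adaptor of the integrin-linked kinase, was 17.2 ± 2.14 and 20.2 ± 0.582. The most abundant others, Pxn, Src, Vcl and Fermt2, did not pass, and neither did Ptk2, the focal adhesion kinase (7.72 ± 0.330 and 7.70 ± 0.409 FPKM), with a 95% interval of -0.14 to 0.14.

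**Figure D5:**
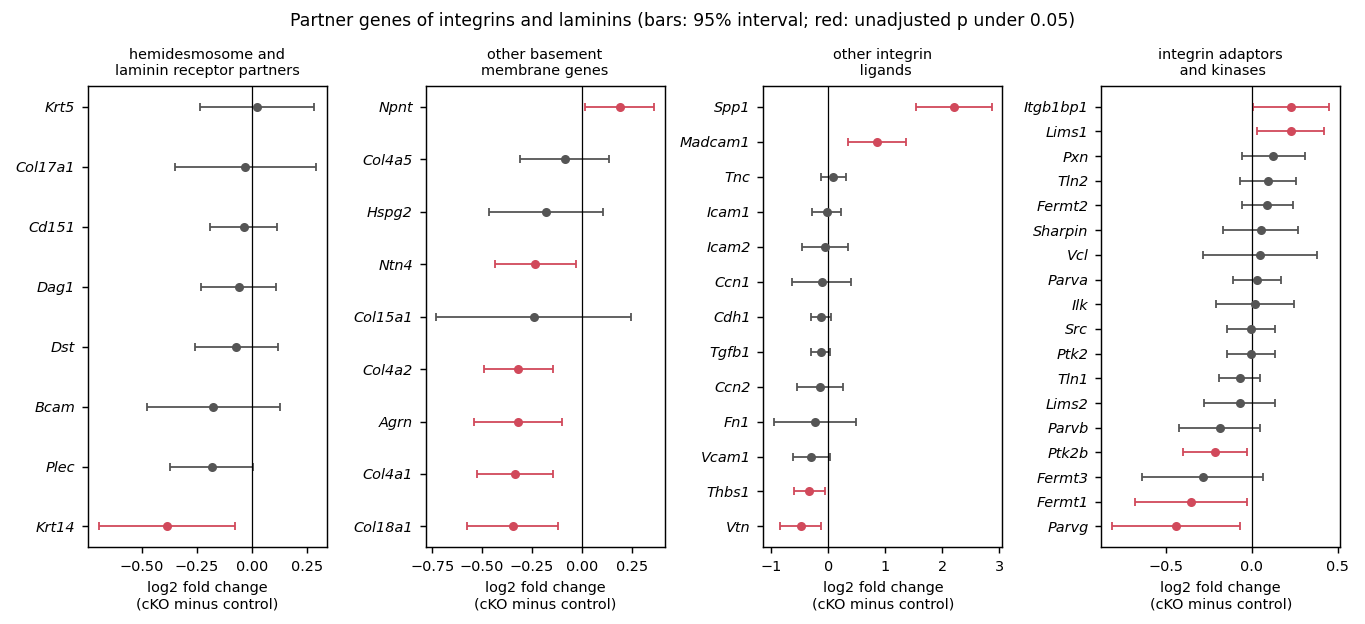
Log2 fold changes (cKO minus control) with 95% intervals for 4 lists of partner genes, with those at an unadjusted p under 0.05 in red. Spp1 reaches 2.20 in the ligand panel, and 5 of the 9 basement membrane genes lie left of 0 in red.

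Sets of replicates mattered for several members. Averaged within a group, replicates 1 and 2 exceeded replicates 3 and 4 in both groups for Itgb8 (by 0.49 on the log2 scale in control and 0.36 in cKO), Itgav (0.36 and 0.25), Nid1 (0.34 and 0.44) and Itga6 (0.19 and 0.16). The cKO minus control difference kept its sign within both sets for each of the 10 members, and was -0.29 and -0.58 for Itgb3, -0.34 and -0.46 for Lama3, -0.44 and -0.73 for Itgb2, 0.19 and 0.39 for Itgb6 and 0.10 and 0.22 for Itgb4. For 3 of the 10, the unadjusted threshold was lost on leaving out any 1 of several libraries. With all libraries their unadjusted p (limma) was already near it, at 0.0442 for Itga2, 0.0407 for Itgb4 and 0.0455 for Lamc1. Itga2 lost it without control replicate 1, 2 or 3 or cKO replicate 3 or 4. Its log2 fold change was then -0.31 without control replicate 1 and -0.29 without cKO replicate 4. It was -0.42 without control replicate 2 or cKO replicate 3, and -0.47 without control replicate 3. Itgb4 and Lamc1 each lost it without control replicate 1, 2 or 4 or cKO replicate 3 or 4, with log2 fold changes of 0.12 to 0.17 and of -0.21 to -0.16.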

How the data were processed

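RNA-seq libraries of 4 control and 4 cKO mice were analysed. Per their methods, the authors mapped reads with Hisat2 to GRCm38 and deposited FPKM. The submitters' processing notes name StringTie 1.3.3b and featureCounts 1.5.0-p3, and the build mm9. The coordinates of all 39 members equal those of GENCODE vM21, a GRCm38 annotation. FPKM times gene length gave whole reads (tolerance 0.01) for 100% of values, and the FPKM already carry median-of-ratios size factors. Strand-specific counting was not given in the sources used here.

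Genes averaging at least 0.5 FPKM entered a fit of log2(FPKM + 1) in limma 3.58.1 (R 4.3.3), with empirical Bayes moderation, a trend, Benjamini-Hochberg adjustment and no pairing. The procedure was tested on simulated data. Plots used matplotlib 3.10.9. The alternatives were a pseudocount of 0.1, other filters and scalings, no trend, blocks, limma-voom on the recovered reads, and each library left out. Members described in full had an unadjusted p under 0.05, or were Itgb1, Itgb3, Itga6 and Itgb4. Partner genes named had an unadjusted p under 0.05 or were up to 4 others per list with the highest mean FPKM. Fn1, Plec and Ptk2 were named for their roles after their values were seen. The members and lists were chosen with earlier results of these data known. Labels do not say which mice share a litter. Values of 1 member are not reported here, though the counts over all members include it.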

Additional observations from a re-analysis of the deposited data

Results flagged for a closer look

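Among the 78 sets of 4 libraries examined for the 39 genes, 3 held a library far from the other 3 by Dixon's criterion at 95%, and chance flags about 1 in 20 such sets. Itga10 was 1.37 FPKM in control replicate 3, below 1.61 to 1.65 in the other control libraries. Itgb6 was 6.33 FPKM in control replicate 1, above 5.29 to 5.37 in the others, and this is the library that overlaps the cKO range. Lamb3 was 17.5 FPKM in control replicate 2, below 20.6 to 20.8 in the others.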

How the results depend on the processing

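The unadjusted threshold was kept by Itga5, Itga7, Itgb2, Itgb3, Itgb6, Lama3 and Lamb2 in all 18 alternatives with a test, while Itga2, Itgb4 and Lamc1 each kept it in 10 of 18. A second median-of-ratios scaling is not counted, since the FPKM already carry it. The number of members lower in cKO was 6 to 11 when single libraries were left out, the number higher 1 to 3 (over all genes 917 to 1196 lower and 1088 to 1318 higher), the number without overlap 6 to 10, and the number past the adjusted threshold 0 to 0, and the Bmpr1a difference was 0.544 to 1.52 FPKM. The number higher was 1 without control replicate 1, 2 or 4 or cKO replicate 3 or 4, and the number without overlap was 10 without cKO replicate 1. With 1 library fewer, the groups separate more easily for any gene, and the share over all genes was not counted there. These numbers without overlap therefore cannot be set against the 10.7% of all genes in the full set. The number higher was also 1 under TPM scaling and without trend. Under TPM scaling the log2 fold change of Itgb1 reversed to -0.027. The cause was not tested. Replicate numbers gave no sign of pairing single mice, though the labels do not settle it. The deviations of same-numbered libraries correlated by 0.0797 to 0.137, and 3 of 8 libraries correlated best with their own number. Other numbers of the same set (1 and 2, or 3 and 4) correlated by 0.0873 to 0.178. Across the sets the correlations were -0.21 to -0.072. The sets thus shared structure between the groups, which the main fit does not model. With a replicate block 9 members were lower, 3 higher and 0 past the adjusted threshold, beside 1446 lower and 1678 higher over all genes, and with a block for the sets of replicates 8 were lower, 3 higher and 0 past it (Itga5 adjusted p = 0.0504 in limma), beside 1434 lower and 1797 higher over all genes, while limma-voom on recovered reads with the replicate block put 5 past it (Itga2, Itga5, Itgb3, Lama3 and Lamb2). Over all genes the number past the adjusted threshold was 135, against 50 with the replicate block, 442 with the block for sets (1 and 2, and 3 and 4), 252 with limma-voom, 680 with limma-voom and the replicate block, 10 without a filter and 0 to 78 with single libraries left out. Depth limits genes with few reads, such as Itgad (0 to 6 reads), Itgam (14 to 31) and Itga10 (119 to 171).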
